A study of Drosophila melanogaster with 12 samples.

Results

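Head transcripts of the light phase were set against those of the dark phase within 1 light/dark day. The comparison took 6 of the 12 arrays of the series. The light group held the 3 arrays titled ZT4, ZT8 and ZT12, and the dark group the 3 arrays titled ZT16, ZT20 and ZT24, where ZT is Zeitgeber time in hours after lights on. All flies were cn bw adults, so both groups carried the eye colour alleles cinnabar and brown; sex, age and food are not given in the sources used here. Per the labels, the flies had been entrained for 3 days to cycles with 12 hours in each phase, and each array was made from the pooled heads of about 100 to 200 flies. The 6 other arrays, CT4 to CT24, came from the following day in constant darkness and served as a second set in which the same hours passed without light. There they formed a subjective day (CT4, CT8 and CT12) and a subjective night (CT16, CT20 and CT24).

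Light and the clock can both separate day from night in a fly head. Light acts on the photoreceptors of the eye and on the blue-light receptor cryptochrome in clock cells. The circadian clock runs with or without light: CLK and CYC switch on per and tim, whose proteins build up during the evening and then block CLK and CYC, while TIM is broken down in light. Many transcripts driven by that loop are known to peak near dusk or near dawn rather than in the middle of a phase.

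Hours differed within each group, with 1 array per hour, so the spread in all tests includes the daily curve within a phase. RNA was extracted with either Rnazol or Trizol, and the labels do not link a reagent to an array. The labels do not say whether each hour was a separate collection, and p-values measure only the spread between these arrays. Light cannot be told apart from the hours passed, since every dark array was taken after every light array. ZT12 and ZT24 sat on the light transitions, at lights off and at lights on. RNA quality varied between arrays. It is given here as the 3' excess, the log2 signal of control probe sets at the 3' end of actin, GAPDH and eIF-4a minus that at the 5' end, averaged over the 3 controls. It grows when RNA is broken or copied short. The 3' excess was 1.84 in ZT4, 1.78 in ZT8 and 2.13 in ZT12 in light, against 2.58 in ZT16, 1.60 in ZT20 and 3.32 in ZT24 in dark. ZT16 and ZT24 thus lay above every light array, and ZT20 below all of them. In the constant darkness arrays it was highest in CT4, at 2.88.

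No gene passed the test of light against dark in limma over all 13966 probe sets (smallest adjusted p = 0.0581). Of 10844 genes, each taken through its brightest probe set, 0 were called, a background share of 0%. An unadjusted p under 0.05 was found for 295 genes (2.72%), of which 130 were higher in light (1.2%) and 165 higher in dark (1.52%). With 3 arrays against 3, an exact 2-sided permutation test of a single gene cannot go below 0.1. The median standard error (SE) of the difference was 0.12. One dark array decided this count: without ZT20, which leaves ZT16 and ZT24 as the dark arrays, 55 genes were called, 35 higher in light and 20 higher in dark. Without ZT12 only Edc3 was called, and without any of the other 4 arrays 0 genes were.

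Genes are therefore described below by their values. A gene is termed separated if its 3 light and 3 dark arrays did not overlap, its light minus dark difference was at least 0.5 in size and its higher group averaged at least 5, all on the log2 scale. This held for 31 genes that were higher in light (0.286% of all genes) and 29 that were higher in dark (0.267%). These numbers also moved with single arrays: they were 272 and 151 without ZT20, 202 and 76 without ZT12, 58 and 31 without ZT24, and 42 and 47 without ZT16. Without any condition on size, 249 genes (2.3%) had all light arrays above all dark arrays and 475 (4.38%) the reverse.

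The clearest gene of the light side was CG7564, listed in RefSeq with the synonym Alsin2. Its signal was 5.25, 5.15 and 5.32 in light (ZT4, ZT8 and ZT12), against 4.13, 4.08 and 3.95 in dark (ZT16, ZT20 and ZT24). The 2 groups were each tight and lay far apart: 5.24 ± 0.08 in light and 4.05 ± 0.09 in dark (SD, n = 3 each). The difference was 1.19 ± 0.10 (SE), a 2.27-fold higher signal in light, and just missed the threshold (adjusted p = 0.0581 by limma). It was called when the spread was taken from all 12 arrays (adjusted p = 0.000775 by limma), the single gene among all that was (0.00922%).

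Ythdf, whose product reads a methylation mark on mRNA, measured 6.14, 6.11 and 5.83 in light, against 4.91, 4.99 and 4.64 in dark, a difference of 1.18 ± 0.14. Edc3, an enhancer of mRNA decapping, had the widest difference among the light-side genes. It measured 6.24, 6.44 and 5.25 in light, against 4.34, 4.17 and 4.43 in dark, a difference of 1.66 ± 0.29 and 3.17-fold. Its ZT12 array lay between the earlier light arrays and the dark arrays. CycT, the cyclin subunit of the elongation kinase P-TEFb, measured 6.04, 5.95 and 5.75 in light, against 5.20, 5.39 and 5.39 in dark (0.59 ± 0.12).

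The transcriptional repressor capicua, encoded by cic, was at 6.27, 6.09 and 6.10 in light, against 5.41, 5.37 and 5.35 in dark. Its dark arrays had an SD of 0.03 (n = 3). The difference was 0.78 ± 0.10, but a second probe set of cic showed 0.04 ± 0.11, so the 2 did not agree. REPTOR, a transcription factor held back by the growth kinase TOR, was at 5.70, 5.61 and 5.45 in light, against 4.95, 4.52 and 4.96 in dark (0.78 ± 0.15).

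CASK, a scaffold protein of synapses, averaged 7.08 ± 0.08 in light and 6.22 ± 0.17 in dark (SD, n = 3 each). Its difference was 0.86 ± 0.12, and its other probe sets showed 0.65 ± 0.12 and 0.14 ± 0.15. Ae2, an anion exchanger, was at 7.55, 7.30 and 7.04 in light, against 6.54, 6.17 and 6.64 in dark (0.85 ± 0.17). The proteasome subunit gene Rpn1 was at 8.44, 8.30 and 8.27 in light, against 7.63, 7.58 and 7.39 in dark (0.81 ± 0.11).

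Among the weaker members, sano, which encodes a partner of Dishevelled in planar polarity, differed by 0.54 ± 0.10, and Swip-1, an EF-hand protein that binds actin, by 0.69 ± 0.15. Drsl5, of the drosomycin family of antifungal peptides, differed by 0.56 ± 0.10. CG42613, CG6191 and CG8788 differed by 0.55 to 0.65. None of these genes passed (adjusted p of 0.1657 to 0.9995 by limma over the named light-side genes other than CG7564).

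**Figure D1:**
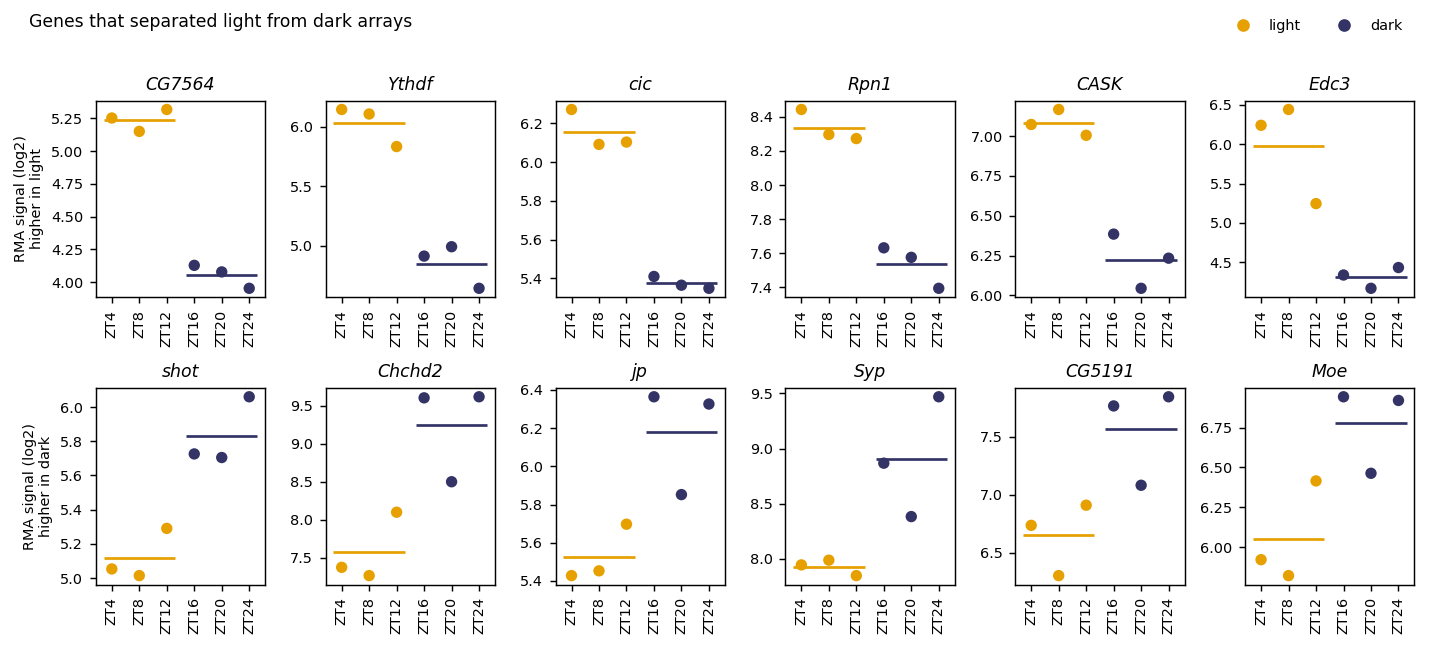
RMA signal (log2) at each hour of the light/dark day for the 6 genes with the smallest p on each side; points are single arrays, orange for light and blue for dark, and bars are group means (n = 3 each). In the upper row all light points lie above all dark points, with tight dark groups; in the lower row the dark points lie higher, and ZT20 is the lowest dark point in all 6 genes.

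On the dark side, the largest difference was that of Chchd2, which encodes a small mitochondrial protein. It measured 7.37, 7.26 and 8.10 in light, against 9.60, 8.50 and 9.62 in dark. The difference was -1.66 ± 0.34, a 3.16-fold lower signal in light (adjusted p = 0.9474 by limma). Its 2 high dark arrays were ZT16 and ZT24, and ZT20 stood closer to the light arrays.

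That order was common on the dark side. In 22 of the 29 dark-side genes both ZT16 and ZT24 lay above ZT20, against 35.6% of all genes. The 3' excess was largest in ZT24 and ZT16 and smallest in ZT20 among the 6 arrays. In 23 of the 29, ZT12 was the highest light array, against 48.8% of all genes, and ZT12 had the largest 3' excess of the light arrays. On the light side ZT16 and ZT24 both lay below ZT20 in 13 of 31 genes (41.9%), against 35.6% of all genes. ZT12 was the lowest light array in 24 of the 31 (77.4%), against 29.9% of all genes. The part of RNA quality in the differences of either side was not tested. With the 3' excess as a covariate, 0 genes were called. The fit without it also called 0, so this count cannot show a part of RNA quality. The smallest adjusted p was 0.1939 with the covariate and 0.0581 without it, both by limma.

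Syp, an RNA-binding protein of the hnRNP Q kind, showed the same shape, with 7.95, 7.99 and 7.85 in light, against 8.87, 8.38 and 9.47 in dark (-0.98 ± 0.25). The corepressor gene CtBP was at 5.92, 5.68 and 6.17 in light, against 7.10, 6.27 and 6.80 in dark (-0.81 ± 0.22). The homeodomain factor gene pros was at 7.07, 6.90 and 7.11 in light, against 7.82, 7.27 and 7.73 in dark (-0.58 ± 0.16). In all 3 genes ZT20 was the lowest dark array.

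Dark-side genes of the cell's scaffold included shot, a spectraplakin that links actin and microtubules, at 5.05, 5.01 and 5.29 in light, against 5.73, 5.71 and 6.06 in dark (-0.71 ± 0.14). Moe, the membrane-actin linker moesin, differed by -0.72 ± 0.20. The neuronal ankyrin gene Ank2 differed by -0.96 ± 0.27, while its other probe sets, all weaker, lay between -0.11 and 0.13. The junctophilin gene jp differed by -0.65 ± 0.16, with a second probe set at -0.49 ± 0.16. The perlecan gene trol differed by -0.51 ± 0.15, and its second, weaker probe set by 0.13 ± 0.12.

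Mf, which encodes myofilin of the thick filaments of muscle, was at 8.37, 8.16 and 8.52 in light, against 9.67, 8.67 and 9.30 in dark (-0.86 ± 0.24). It was the only 1 of 16 muscle markers without overlap, where 4.38% of all genes were without overlap on the dark side. Of the 16 markers 9 were higher and 7 lower in light, with a median difference of 0.08. The myosin light chain gene Mlc2 was at 12.39, 12.33 and 11.94 in light, against 10.99, 12.27 and 11.23 in dark. Without ZT16 and ZT24 its difference was -0.05. The summed linear signal of the muscle list ranged from 7066 to 12030 in light and from 6391 to 11420 in dark, so the groups overlapped. In bulk heads, fewer cells of a type and less RNA per cell cannot be told apart.

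A different shape was seen in sesB, which encodes the mitochondrial ADP/ATP translocase. It measured 10.45, 10.43 and 10.36 in light, against 10.64, 11.05 and 11.28 in dark, with ZT16 the lowest dark array (-0.58 ± 0.16). CG5191, the hydrolase gene Hydr2, the ubiquitin ligase gene Trc8 and trv differed by -0.92, -0.50, -0.66 and -0.57. The other probe sets of trv, both weaker, differed by -0.16 ± 0.11 and -0.10 ± 0.14, with overlapping groups. No dark-side gene passed (adjusted p of 0.8563 to 0.9995 by limma).

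The constant darkness arrays took no part in choosing the separated genes, and they cover the same hours without light. The light-side genes did not keep their direction there. Of the 31 genes, 27 were lower in the subjective day than in the subjective night, and 4 were higher, against 42.7% of all genes that were lower. In 21 of the 31, all 3 subjective day arrays lay below all 3 subjective night arrays, against 3.49% of all genes. Over all genes, 59.6% had opposite signs in the 2 days. The median difference over the 31 genes was 0.78 for light minus dark and -0.69 for subjective day minus subjective night. Of the 4 higher ones, trpl and Drsl5 are described here, and the other two were the cuticle gene Cpr50Cb and Fem-1, named after their values were seen. Without CT4 and CT8, a setting chosen after seeing the data that leaves CT12 as the only subjective day array, 25 of the 31 were lower there. These genes share their arrays, so the counts are not independent evidence gene by gene.

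**Figure D2:**
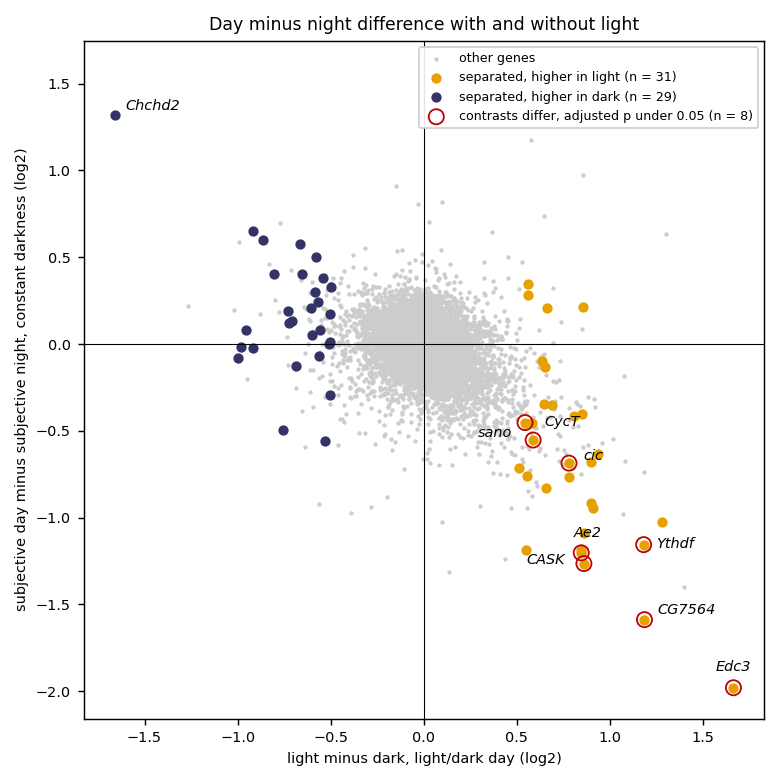
Light minus dark difference (x axis, log2) against subjective day minus subjective night difference (y axis, log2), 1 point per gene; orange and blue points are the separated genes, and red circles mark genes whose contrasts differed between the days. Most orange points lie in the lower right, with Edc3 at 1.66 and -1.98, and Chchd2 stands alone in the upper left at -1.66 and 1.32.

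The difference between the 2 contrasts was tested in limma over all 12 arrays in 4 groups. It passed for 8 genes (0.0738%), and for 10 probe sets, over all 13966. An unadjusted p under 0.05 was found for 498 genes (4.59%). Subjective day against subjective night alone was called for 2 genes (0.0184%), CG7564 and Edc3, both lower in the subjective day. All 8 were separated genes of the light side. CG7564 measured 4.14, 4.10 and 4.08 in the subjective day, against 5.83, 5.72 and 5.53 in the subjective night. Its subjective day thus matched its dark level of the day before, and its subjective night stood slightly above its light level. The contrasts differed by 2.77 ± 0.13 (SE; adjusted p = 3.349e-06 by limma, higher in light in the first day and lower in the subjective day in the second).

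Edc3 showed the same course, at 4.15, 3.87 and 4.22 in the subjective day, against 5.93, 6.04 and 6.21 in the subjective night (3.64 ± 0.35, adjusted p = 0.0020 by limma). Ythdf was at 4.93, 4.77 and 5.12 in the subjective day, against 6.35, 6.17 and 5.78 in the subjective night (2.34 ± 0.23, adjusted p = 0.0020 by limma). For CASK the contrasts differed by 2.13 ± 0.24 (adjusted p = 0.0085), for cic by 1.47 ± 0.17 (0.0087) and for sano by 0.997 ± 0.121 (0.0096). For CycT they differed by 1.14 ± 0.16 (0.0268) and for Ae2 by 2.05 ± 0.30 (0.0407), all by limma.

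In each of these 8 genes all of the 6 successive arrays from ZT16 to CT12 lay below the 3 arrays before them and the 3 after them. The labels do not say whether these 2 sets of arrays shared 1 collection or stock of flies, and a difference between collections cannot be told apart from the values above. The remaining 2 probe sets that passed were 1 with no gene name here, at 2.60 ± 0.35 and of the same shape, and the second probe set of stau, the RNA-binding protein Staufen. That one ran the other way, with 4.21, 4.29 and 4.10 in light, against 4.78, 4.67 and 4.89 in dark; the brighter probe set of stau was at 5.68, 5.95 and 5.97 in light, against 6.53, 5.27 and 7.18 in dark, where the groups overlapped. The next genes did not pass. IP3K2, an inositol trisphosphate kinase gene, differed by 1.82 ± 0.29 (adjusted p = 0.0517 by limma), but by 0.07 ± 0.18 in its second probe set. The difference of contrasts was 2.31 ± 0.40 for CG9003 (adjusted p = 0.1012), 1.73 ± 0.32 for the SUMO ligase relative tna (0.1459) and -2.98 ± 0.55 for Chchd2 (0.1459). It was 1.55 ± 0.29 for REPTOR (0.1484) and 1.23 ± 0.24 for CG6154 (0.1851), all by limma.

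The call for CG7564 was kept when any of the 12 arrays was left out, and so were those for Edc3, Ythdf, CASK and cic. The sano call was lost without ZT4, the CycT call without ZT4, ZT8, ZT16, ZT24, CT8, CT12, CT16 or CT20, and the Ae2 call without any of 8 arrays (ZT4, ZT8, ZT16, ZT20, ZT24, CT16, CT20 and CT24). Leaving out ZT16, ZT24 and CT4, where the 3' excess was largest, left 2 of the 8 called, CASK and CG7564. With the hour of day as a block, 3 were called, CG7564, Edc3 and Ythdf. Lighting and day cannot be told apart here, since constant darkness was also the later day.

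**Figure D3:**
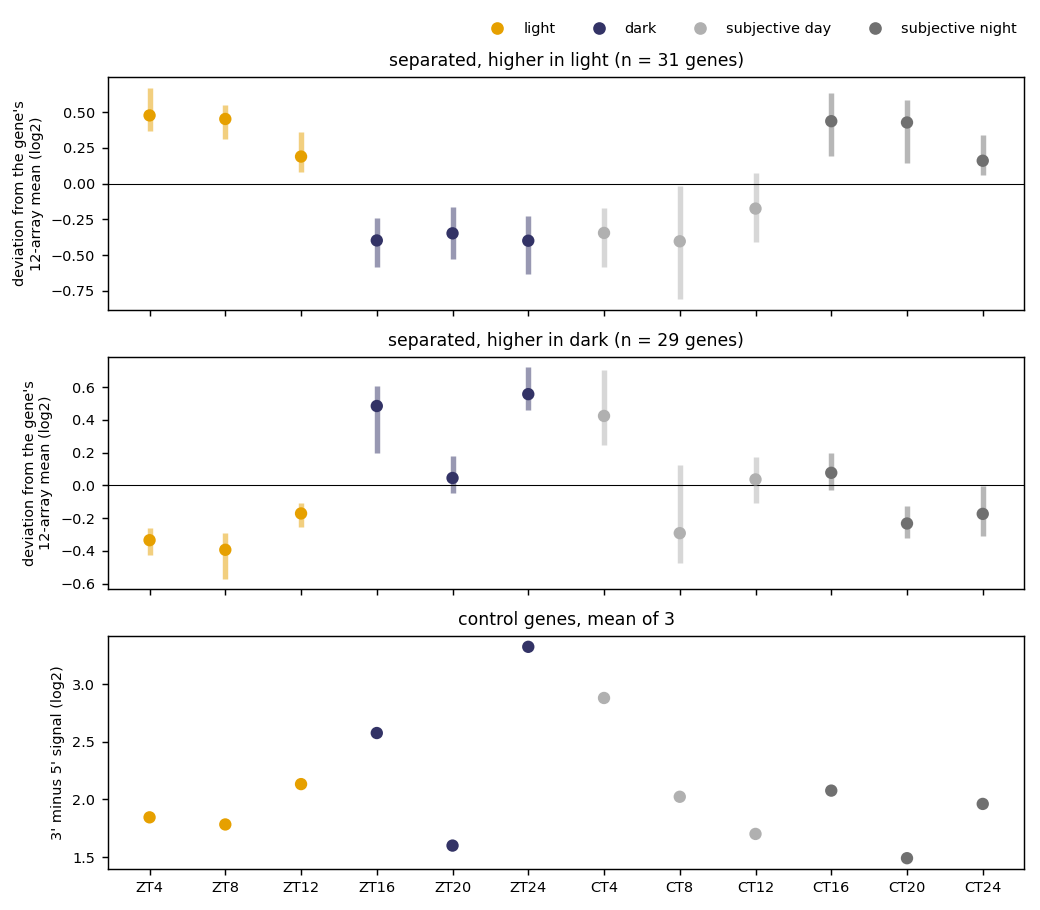
Median deviation of each gene from its mean over all 12 arrays (log2; bars run between the quartiles of the genes) for the 31 light-side genes and the 29 dark-side genes, above the 3' minus 5' signal of the controls (the 3' excess, log2) of every array in order of collection. The light-side median is 0.48 at ZT4, stays between -0.40 and -0.17 from ZT16 to CT12 and is 0.44 at CT16; the dark-side median is highest in ZT24, ZT16 and CT4, the 3 arrays with the largest 3' excess.

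In the RefSeq gene order, CG7564 and Edc3 are direct neighbours on chromosome arm 3L, and CycT lies 3 protein-coding genes beyond Edc3. Nedd4, Jon74E and CG7542, which lie between Edc3 and CycT, had light minus dark differences of -0.21, -0.01 and -0.06. Vps60, listed next beyond CycT among the measured genes, differed by 0.33 ± 0.25 for light minus dark and by -0.32 ± 0.29 for subjective day minus subjective night, with overlapping light and dark arrays. Of the 8 genes whose contrasts differed, 4 lie on 3L and 3 on 3R, against 19.5% and 25.2% of all genes with a known place. On the dark side, CG5214 is next to pros and Cpr92F next to CG4000, both pairs on 3R, where 14 of the 29 dark-side genes lie. CG5214 and CG4000 were chosen after their values were seen.

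The dark-side genes were split in constant darkness. Of the 29, 20 were higher in the subjective day than in the subjective night, against 57.2% of all genes, and 9 were lower. In 5 of them all 3 subjective day arrays lay above all 3 subjective night arrays (17.2%, against 3.88% of all genes). Chchd2 was the extreme, at 9.74, 8.58 and 8.33 in the subjective day, against 7.82, 7.45 and 7.43 in the subjective night. For sesB the subjective day was at 10.80, 11.28 and 10.98, against 10.57, 10.39 and 10.59 in the subjective night. For Syp the 2 groups averaged 8.16 and 8.18 and overlapped.

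All 8 core clock genes had overlapping light and dark arrays, and none passed the test. vri, which encodes a repressor of Clk, measured 5.43, 6.12 and 6.78 in light, against 6.79, 5.80 and 5.68 in dark. Both groups ran through the same range, and the difference was 0.02 ± 0.39. tim measured 4.88, 6.07 and 6.40 in light, against 6.34, 6.28 and 5.57 in dark (-0.28 ± 0.39). Its ZT4 array was the lowest of the 6 and its ZT12 array the highest, while ZT8 lay among the dark arrays.

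per was highest at ZT16, with 5.27, 5.14 and 5.71 in light, against 6.12, 5.29 and 5.32 in dark (-0.20 ± 0.25). Pdp1, an activator of Clk, was at 5.25, 5.58 and 6.19 in light, against 6.07, 5.42 and 6.10 in dark (-0.18 ± 0.27). The repressor gene cwo was at 4.97, 4.87 and 5.12 in light, against 5.49, 5.11 and 5.13 in dark (-0.25 ± 0.14), with a single-array overlap at ZT12. Its second, weaker probe set differed by -0.76 ± 0.32 and overlapped as well. Clk was at 3.94, 3.93 and 3.58 in light, against 3.70, 3.77 and 3.83 in dark (0.05 ± 0.13), and its partner gene cyc differed by -0.09 ± 0.13.

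cry, the blue-light receptor gene, was the clock gene with the smallest unadjusted p. It measured 7.63, 7.58 and 7.23 in light, against 6.74, 7.31 and 6.82 in dark, a difference of 0.52 ± 0.18 (unadjusted p = 0.0222, adjusted p = 0.9995 by limma). Only ZT20 overlapped the light arrays, and the lower dark arrays were ZT16 and ZT24, where the 3' excess was large. Of the 8 core clock genes, 3 were higher and 5 lower in light, with a median of -0.14 (0.07 without ZT16 and ZT24); 0 were separated and 0 were called. In constant darkness tim had the largest difference, -0.94 ± 0.47.

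**Figure D4:**
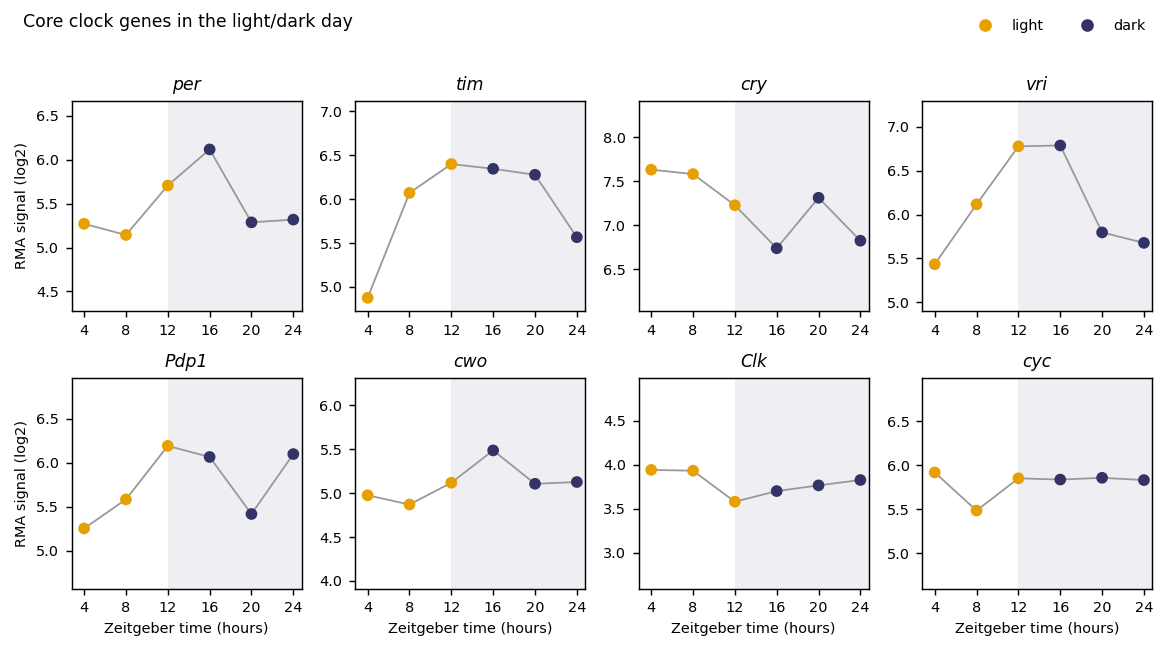
RMA signal (log2) of the 8 core clock genes by Zeitgeber time in hours, orange for light and blue for dark arrays, with the dark phase shaded; all panels span the same height on the log2 scale. vri, tim and Pdp1 climb through the light phase to a maximum at ZT12 or ZT16, while cry is highest at ZT4.

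The visual system gave 1 separated gene. trpl, which encodes a light-gated cation channel of the photoreceptors, measured 9.01, 9.58 and 8.74 in light, against 7.87, 8.62 and 8.26 in dark. All light arrays lay above all dark arrays, with a difference of 0.86 ± 0.25 (unadjusted p = 0.0108 by limma), and the subjective day minus subjective night difference was 0.21 ± 0.23. Of 26 phototransduction genes, 13 were higher and 13 lower in light, with a median of -0.01. Of these 1, trpl, was without overlap, against 2.3% of all genes on the light side and 4.38% on the dark side. The listed genes ninaE, Rh2 to Rh6 and norpA had no probe set assigned to them alone and were left out. The rhodopsin phosphatase gene rdgC differed by 0.56 ± 0.28, the visual G protein gamma gene Ggamma30A by 0.84 ± 0.46 (-0.18 without ZT16 and ZT24), and the sodium/calcium exchanger gene Calx by -0.51 ± 0.25; all 3 overlapped.

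The separate list of photoreceptor markers shows how much of this level varied by array. Of its 12 listed genes 6 had a probe set of their own, without ninaE, norpA and Rh3 to Rh6. Of these 6 genes, 5 were higher in light, with a median of 0.24. Its median deviation was -0.64 in both ZT12 and ZT16, against 0.43 in ZT4 and 0.35 in ZT8. The summed linear signal was 3353 to 6480 in light and 2778 to 5532 in dark. The arrestin gene Arr1 was at 10.91, 11.17 and 9.33 in light, against 9.29, 10.92 and 9.93 in dark, and trp at 9.34, 9.47 and 8.79 in light, against 8.37, 9.22 and 8.95 in dark. The part of photoreceptor content in the trpl difference was not tested.

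The strain's own genes and the other eye lists were even between the groups. cn averaged 4.67 ± 0.09 in light and 4.73 ± 0.06 in dark, and bw 6.10 ± 0.14 and 6.03 ± 0.23 (SD, n = 3 each). Of 21 pigment genes 12 were higher in light, with a median of 0.02. The pink gene p was the single one without overlap, by 0.09, against 2.3% of all genes on the light side. Of 8 genes listed for the chromophore 4 were higher (median -0.003), with the retinoid-binding protein gene pinta at -0.24 ± 0.14. That list also counted neo, a gene of the zona pellucida domain family. Among 15 genes listed for histamine, dopamine and serotonin handling, 7 were higher in light (median -0.01). The list also counted the sodium channel gene para and the octopamine and tyramine genes Tbh and Tdc1. Vmat, the vesicle transporter of monoamines, was the 1 gene without overlap, against 4.38% of all genes on the dark side. It was at 7.48, 7.39 and 7.48 in light, against 8.31, 7.50 and 7.53 in dark. The histamine synthesis gene Hdc differed by -0.49 ± 0.29 and speck, an acetyltransferase of dopamine, by 0.77 ± 0.44 (-0.21 without ZT16 and ZT24).

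The gene list that stood highest in light was that of the proteasome, the complex that degrades ubiquitin-tagged proteins. It also counted testis paralogues such as Prosalpha3T and Rpt3R. Of 39 genes 29 were higher in light, with a median difference of 0.26, against a median of -0.01 and 46.2% higher over all genes. In 4 of them all light arrays lay above all dark arrays (2.3% of all genes), and 1 ran the reverse way. An unadjusted p under 0.05 was found for 4, all higher in light, against 1.2% of all genes. These were Rpn1, the regulatory particle gene Rpn12 (7.84, 7.69 and 7.48 in light, against 7.20, 7.48 and 6.99 in dark) the ATPase gene Rpt3 (6.96, 6.83 and 6.48 in light, against 5.67, 6.64 and 5.20 in dark), and the core subunit gene Prosbeta6 (0.49 ± 0.21). The list's median deviation was 0.33 in ZT4, 0.21 in ZT8 and -0.08 in ZT12, against -0.17 in ZT16, 0.09 in ZT20 and -0.27 in ZT24. ZT20 thus stood above ZT12, and without ZT16 and ZT24 the median difference was 0.0043. In constant darkness 22 of 39 were higher in the subjective day, with a median of 0.01.

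Of 37 cytosolic ribosomal protein genes, paralogues such as RpL24-like and RpS5b included, 25 were higher in light, with a median of 0.16. None was without overlap. RpLP0, of the ribosomal stalk, was at 11.04, 11.23 and 11.47 in light, against 9.85, 11.16 and 9.68 in dark, and RpL17 at 11.69, 11.50 and 11.46 in light, against 10.45, 11.64 and 10.43 in dark. In both genes ZT16 and ZT24 were low and ZT20 was close to the light arrays. Without ZT16 and ZT24 the median of the list was -0.11. Of 69 oxidative phosphorylation genes, paralogues such as COX4L and ND-20L included, 39 were higher in light (median 0.05). COX4 differed by 0.54 ± 0.25 (-0.09 without ZT16 and ZT24) and the ATP synthase gene ATPsynE by -0.26 ± 0.11. Mitochondrial ribosomal proteins had 28 of 64 higher (median -0.01), with mRpL50 at -0.24 ± 0.10 and mRpL55 at -0.52 ± 0.21. Antioxidant genes had 10 of 16 higher (median 0.11), with catalase, Cat, at 9.16, 9.23 and 8.88 in light, against 8.33, 9.08 and 8.51 in dark. The antioxidant list's median deviation was 0.22 in ZT4, 0.15 in ZT8 and -0.01 in ZT12. It was -0.32 in ZT16 and -0.20 in ZT24, but 0.20 in ZT20, above ZT8 and ZT12.

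**Figure D5:**
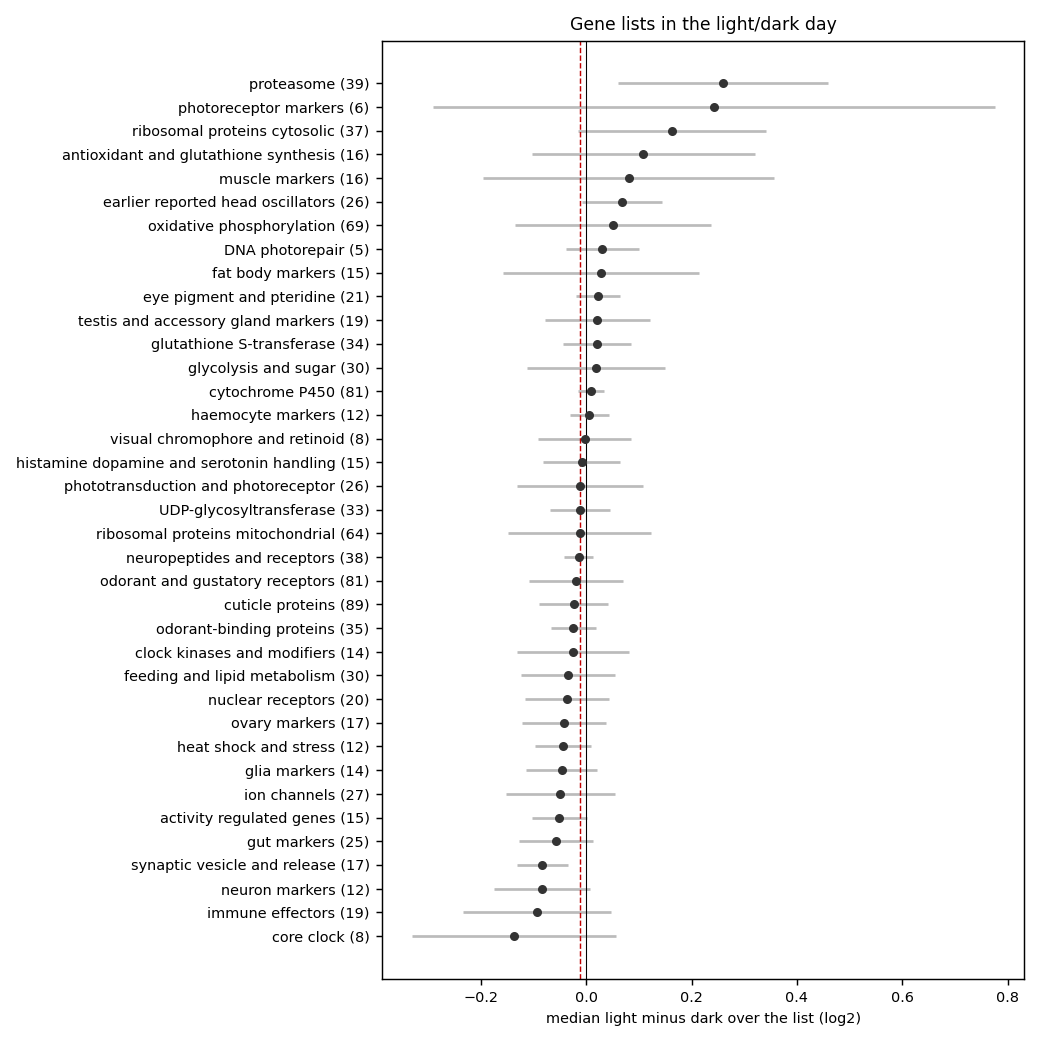
Median light minus dark difference (x axis, log2) over the members of each gene list, with list sizes in brackets; grey bars are the SD of the list's median deviation between arrays of the same group, and the dashed line is the median over all genes, -0.01. The proteasome list lies farthest to the right at 0.26 and the core clock list farthest to the left at -0.14.

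Metabolic and hormone lists had medians near that of all genes. Of 30 feeding and lipid genes 13 were higher in light (median -0.03). In 3 of them all light arrays lay above all dark arrays, against 2.3% of all genes. These included REPTOR and the citrate lyase gene ATPCL (0.22 ± 0.10). Another 2 ran the reverse way, against 4.38% of all genes. The insulin-responsive factor gene foxo was 1 of these (6.47, 6.48 and 6.59 in light, against 7.18, 6.81 and 6.60 in dark). Of 30 glycolysis and sugar genes 16 were higher (median 0.02), with Pgi at 0.32 ± 0.14 and Eno at 0.67 ± 0.30 (-0.08 without ZT16 and ZT24). Of 20 nuclear receptor genes 8 were higher (median -0.04). Without overlap were 1 on the light side, Hr4 at 0.31 ± 0.13, and 2 on the dark side, among them svp at -0.35 ± 0.14. The shares over all genes were again 2.3% and 4.38%.

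Detoxification genes were close to all genes in their medians. Of 81 cytochrome P450 genes 44 were higher in light (median 0.01), and 4 were without overlap on the dark side, a share near the 4.38% of all genes. Cyp6a13 was at 5.90, 5.87 and 5.88 in light, against 6.04, 6.17 and 6.42 in dark. Cyp18a1, an ecdysone-inactivating enzyme, was at 4.24, 3.96 and 4.87 in light, against 5.21, 4.67 and 5.59 in dark, where ZT20 overlapped ZT12. Cyp6a21 was highest at ZT24, at 4.67, and differed by -0.47 ± 0.21. Of 33 UDP-glycosyltransferase genes 14 were higher in light (median -0.01), and 4 were without overlap on the dark side, against 4.38% of all genes. Ugt37A3 was at 4.10, 4.09 and 4.02 in light, against 4.28, 4.27 and 4.64 in dark, and Ugt37D1 at 6.07, 6.12 and 6.21 in light, against 6.36, 6.32 and 6.69 in dark. Of 34 glutathione S-transferase genes 20 were higher in light (median 0.02), with GstD9 at 0.32 ± 0.20.

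Secreted and surface proteins of the head showed members on both sides. Of 35 odorant-binding protein genes 16 were higher in light (median -0.02), and 3 had an unadjusted p under 0.05, all higher in dark, against 1.52% of all genes. Obp99a was at 8.50, 8.72 and 8.51 in light, against 8.67, 9.69 and 9.05 in dark. Its subjective day minus subjective night difference was -0.92 ± 0.29. Obp56e differed by -0.59 ± 0.20 and Obp56d by -0.53 ± 0.20, with subjective day minus subjective night differences of -0.36 ± 0.28 and -0.30 ± 0.25. Of 89 cuticle protein genes 43 were higher in light (median -0.02). Cpr50Cb was at 7.12, 6.66 and 6.68 in light, against 6.40, 6.32 and 6.07 in dark, and Cpr92F at 6.21, 6.24 and 6.27 in light, against 7.06, 6.82 and 6.44 in dark. Both kept their direction in constant darkness, by 0.34 ± 0.20 and -0.56 ± 0.22. Cpr11B differed by 0.46 ± 0.14 and Cpr97Eb by 0.88 ± 0.32.

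Neuronal lists had medians from -0.08 to -0.01. Over all genes the median was -0.01, and 46.2% were higher in light. Of 15 activity-regulated genes 6 were higher in light (median -0.05), with the Fos gene kay at 3.94, 3.92 and 4.10 in light, against 4.97, 4.10 and 4.42 in dark, and Arc1 at 0.49 ± 0.26 (-0.10 without ZT16 and ZT24). Of 38 neuropeptide and receptor genes 18 were higher (median -0.01). The ion transport peptide gene ITP was the single one without overlap, against 2.3% of all genes on the light side. It was at 5.08, 5.21 and 4.68 in light, against 4.57, 4.48 and 4.61 in dark. Of 27 ion channel genes 12 were higher (median -0.05), with the inward rectifier gene Irk3 at 0.25 ± 0.12 and Shaker, Sh, at -0.41 ± 0.22. Of 17 synaptic genes 5 were higher and 12 lower (median -0.08), with the GABA transporter gene VGAT among the higher ones at 0.28 ± 0.14. Of 12 neuron markers 4 were higher and 8 lower (median -0.08). ChAT, which makes acetylcholine, ran against the direction of most of them, at 0.36 ± 0.15.

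Among stress and defence genes, 1 immune gene on each side was without overlap. So were 1 heat shock gene on the light side and 1 repair gene on the dark side. The shares over all genes were 2.3% on the light side and 4.38% on the dark side. Of 35 listed immune genes 19 had a probe set of their own, and 7 of these were higher in light (median -0.09). Drsl5 was at 6.57, 6.58 and 6.44 in light, against 5.96, 5.85 and 6.09 in dark, and the peptidoglycan amidase gene PGRP-LB, at -0.23 ± 0.11, was without overlap in the other direction. In constant darkness Drsl5 was at 6.77, 6.93 and 8.04 in the subjective day, against 6.57, 7.10 and 7.23 in the subjective night. Of 25 listed heat shock and stress genes 12 had a probe set of their own, and 5 of these were higher in light (median -0.04). Hsp22, Hsp23, Hsp83 and the listed Hsp70 genes were not among them. The small heat shock gene Hsp26 was without overlap, at 5.29, 5.37 and 5.43 in light, against 4.95, 5.25 and 4.88 in dark, and the cochaperone gene DnaJ-1 differed by 0.78 ± 0.35 (-0.09 without ZT16 and ZT24). Of 5 genes from a list meant for DNA photorepair (Xpc, Xpd, hay, pic and cry) 3 were higher (median 0.03), with Xpd without overlap at -0.12 ± 0.09. The photolyase genes phr and phr6-4 had no probe set assigned to them alone, so photorepair itself was not covered.

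The remaining lists are given by their counts and medians. Of 14 clock kinases and modifiers 6 were higher in light (median -0.02), with the phosphatase subunit gene tws at -0.33 ± 0.17. Of 26 earlier reported head oscillators, a list that is not independent of published fly time courses, 16 were higher (median 0.07). Of 81 odorant and gustatory receptor genes 27 were higher (median -0.02), with 1 without overlap on the light side, against 2.3% of all genes, and 5 on the dark side, against 4.38%. These included Or56a and Or88a at -0.22 ± 0.09 and -0.31 ± 0.13. Median differences of markers were -0.05 for glia, 0.03 for fat body, 0.01 for haemocytes, -0.06 for gut, 0.02 for testis and accessory gland and -0.04 for ovary. The values used carry no detection call, so the presence of head markers was not tested.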

How the data were processed

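The deposited log2 values came from RMA, which the authors ran per the submitters' processing notes; the log base was inferred from a range of 1.72 to 13.52. RNA was labelled with biotin from about 25 µg per array, per the labels' protocols. Of 14010 probe sets, 44 controls were set aside and 13966 tested. Of these, 12443 had 1 gene, 327 several and 1196 none here; names were updated through RefSeq (Release 6 plus ISO1 MT), used for names and gene order only. Of several probe sets of 1 gene, the brightest on average over 12 arrays was taken. List members without a probe set assigned to them alone were left out of the lists. The small number of arrays limits the precision. Light minus dark was fitted with limma 3.58.1 in R 4.3.3 on 6 arrays, and the difference between the days' contrasts on 12; p-values were adjusted by Benjamini-Hochberg across the 13966 probe sets, with a threshold of 0.05. SEs of subjective day minus night come from the 12-array fit. Fits were tested on simulated data. Named genes were the 15 per direction with the smallest p among separated genes, core clock genes, up to 4 members per list, genes whose contrasts differed and the next 6, cn and bw; others are marked. The members and the 37 lists were chosen with earlier results of these data known, and lists are described by counts and medians without a set test.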

Additional observations from a re-analysis of the deposited data

Results flagged for a closer look

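The light minus dark difference of 8 genes differed from their subjective day minus subjective night difference, by the test of the difference itself over 12 arrays. The differences of contrasts were 2.77 for CG7564, 3.64 for Edc3, 2.34 for Ythdf, 2.13 for CASK, 1.47 for cic, 1 for sano, 1.14 for CycT and 2.05 for Ae2 on the log2 scale. In all 8 genes light lay above dark in the first day, and the subjective day lay below the subjective night in the second.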

How the results depend on the processing

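Leaving out 1 array at a time gave 0 to 55 genes called for light against dark, 33 to 272 separated genes higher in light, 24 to 151 higher in dark, and 5 to 11 genes whose contrasts differed between the days. Fewer arrays make non-overlap easier to reach. The light against dark count was 1 (CG7564) with all 12 arrays, with a repeated quantile normalization and with trended robust variances. Separated genes numbered 249 in light and 79 in dark without ZT12 and ZT24, 188 and 134 without ZT16 and ZT24, and 18 in dark with 16 added before log2. The count of differing contrasts was 2 without ZT16, ZT24 and CT4, and 3 with the hour of day as a block. That block pairs arrays of the same hour across the 2 days; within the light/dark day no pairing was made, since the labels carry no replicate numbers.

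Some differences changed sign, and the cause was not tested. Without ZT12 and ZT24, vri was at -0.516 and bw at -0.1095. Without ZT16 and ZT24, Pdp1 was at 0.2587, per at 0.086, bw at -0.169, RpL17 at -0.0863, Ggamma30A at -0.1847, speck at -0.2133, Arc1 at -0.0967, DnaJ-1 at -0.093, Eno at -0.08, Mlc2 at -0.0543, trp at -0.0207, Arr1 at -0.4533 and COX4 at -0.0947. With the 3' excess as a covariate, Pdp1 was at 0.0987, bw at -0.0636 and Arr1 at -0.0634. With single arrays left out, the range was -0.0082 to 0.1728 for Clk, -0.4432 to 0.0268 for Pdp1, -0.1742 to 0.0428 for cyc, -0.3675 to 0.0705 for per, -0.5897 to 0.1718 for tim, -0.3113 to 0.3722 for vri and -0.0415 to 0.193 for bw.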
